A study of Mus musculus with 4 samples.

Results

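Gamma delta intraepithelial T cells of the distal jejunum were taken from single-cell RNA sequencing of 4 adult mice. A cell belonged to them when at most 10% of its unique molecular identifiers (UMIs, 1 per captured RNA molecule) fell on genes with the prefix mt-, when it held at least 1 UMI of Cd3e, Cd3g or Cd3d and at least 1 UMI of Trdc, and when it held 0 UMIs of Cd8b1, Cd4 and Cd79a. The rule found 287 cells, which were 1.27% of the 22679 barcodes, 4.88% of the 5876 cells within the mitochondrial limit and 48.9% of the 587 T cells, defined as cells within that limit with a CD3 UMI and no Cd79a UMI. Because the rule used measured counts, the levels of its 7 genes describe the members and were not tested.

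All 4 mice carried floxed alleles of both Foxc genes. The 2 Control mice had the genotype Foxc1fl/fl;Foxc2fl/fl and the 2 EC-Foxc-DKO mice the genotype Cdh5-CreERT2;Foxc1fl/fl;Foxc2fl/fl, in which the Cdh5 promoter drives a tamoxifen-inducible Cre in endothelial cells, so the T cells described here are not the intended site of deletion. The methods describe tamoxifen-treated adult males. Every mouse had the superior mesenteric artery clamped and released (small intestinal ischemia and reperfusion, I/R), and its distal jejunum was collected 18.5 h later, so no uninjured jejunum enters any comparison. Whole perfused tissue was digested without a sort, and 1 library was made per mouse. Values for single mice are given throughout in the order Control replicate 1, Control replicate 2, EC-Foxc-DKO replicate 1 and EC-Foxc-DKO replicate 2.

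As background, intraepithelial lymphocytes are T cells that live between the epithelial cells of the gut, and in the small intestine many of them carry a T cell receptor of a gamma and a delta chain in place of the alpha and beta chains of conventional T cells. They commonly express CD8 as a homodimer of CD8 alpha chains without CD8 beta, are held in the epithelium by the integrin chain CD103 (gene Itgae), which binds epithelial E-cadherin, and store granzymes. Butyrophilin-like proteins of the enterocytes shape the gamma delta repertoire of the mouse small intestine, and epithelial interleukin 15 maintains these cells.

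The members numbered 53, 45, 156 and 33 cells in the 4 mice, from libraries with 6623, 3623, 7347 and 5086 barcodes and 72046346, 15557181, 64781444 and 38750638 UMIs. They summed to 282436, 261514, 764786 and 203054 UMIs, and their median depth was 4827, 5421, 4545 and 3281 UMIs per cell. EC-Foxc-DKO replicate 1 thus gave more members than the other 3 mice together, and EC-Foxc-DKO replicate 2 gave the fewest and the shallowest. No member had a barcode that occurred in a second library, although 51 barcodes did. In all, 6 members, counted as 2 in EC-Foxc-DKO replicate 1 and 4 in EC-Foxc-DKO replicate 2, had 5% or more of their UMIs on a list of 12 enterocyte genes, and these cells held 5.94% and 48.6% of the UMIs summed over the members of those 2 mice. For the genes named below with a value without these cells, both values are given, and the other levels include them.

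The label was checked against its 3 markers outside the rule. Cd8a, the CD8 alpha chain, had a UMI in 87.8% (83.4 to 91.4%) of the members (exact 95% interval, counting error only), with 92.5, 88.9, 89.1 and 72.7% in the single mice and a mean of 85.8 ± 8.86% (SD, n = 4 mice). Cd7, a surface glycoprotein of T and natural killer cells, had one in 97.9% and Itgae in 92.0%. Background was read from 1165 B cells, defined by a Cd79a UMI and no UMI of CD3 or Epcam, of which 989 came from EC-Foxc-DKO replicate 1. These B cells had a Cd8a UMI in 0.429% and a Cd7 UMI in 0.687%, at a median of 3258 UMIs against 4587 in the members. Itgae had one in 0.343% of them. All 3 shares in the members were far above those in B cells, and to that extent the data went with the label. The CD8b1-gated T cells defined below also carried the markers, with a UMI of Cd8a in 95.8%, Cd7 in 68.1% and Itgae in 51.4%. The 3 markers alone therefore do not show that the members are gamma delta cells.

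Levels are given as CPM, for which a gene's UMIs were summed over the members of a mouse and scaled to 1000000 UMIs in all. Reads were captured at 3′ ends and counted as 1 UMI per molecule, whatever the length of the gene. Cd7 was at 3590.2, 3805, 3618 and 1758 CPM, Cd8a at 1579, 1751, 1391 and 630.4 CPM and Itgae at 800.2, 929, 753 and 458 CPM. Of the rule's own genes, Cd3e stood at 1349, 1609.9, 1421 and 645 CPM and Trdc at 1151, 1235, 1315 and 601 CPM. EC-Foxc-DKO replicate 2 was the lowest mouse for all 5 genes. Without its 4 cells rich in enterocyte RNA its values became 3132 CPM for Cd7, 1111 CPM for Cd8a, 785 CPM for Itgae, 1178 CPM for Cd3e and 987 CPM for Trdc.

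The threshold of the rule was a single UMI, and few members sat on it. The median member held 6 UMIs of Trdc and 26 UMIs of the 3 CD3 genes. Just inside the limit were 31 members with 1 Trdc UMI, of which 64.5% had a Cd8a UMI at a median depth of 3583 UMIs, against 90.6% of the 256 members with more, at 4752 UMIs. On the mitochondrial scale, 21 members lay between 9 and 10%, with a Cd8a UMI in 61.9%, and 18 cells that met every other condition lay just outside between 10 and 11%, with one in 66.7%. Among the T cells with a Trdc UMI, 5 of 292 were left out for a Cd8b1 or Cd4 UMI, and 187 T cells had no UMI of Trdc, Cd8b1 or Cd4 and belong to no gate.

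**Figure D1:**
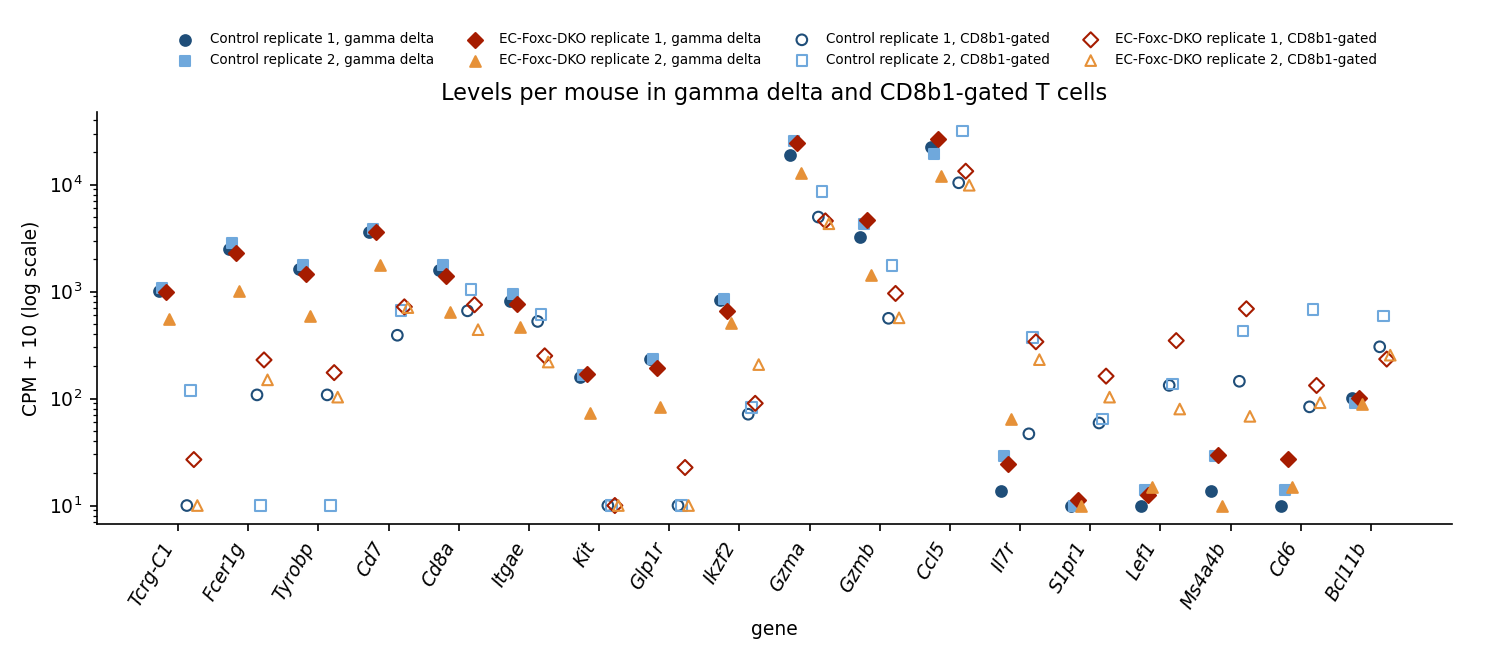
Levels of genes by mouse in the gamma delta cells and in the CD8b1-gated T cells, on a log axis of CPM + 10, with 1 point per mouse and gate. Fcer1g, Tcrg-C1, Cd7 and Gzma sit higher in the gamma delta cells of every mouse, and EC-Foxc-DKO replicate 2 is the lowest of the gamma delta points for most genes.

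Constant genes of the receptor chains were measured as RNA. Trdc, the delta constant gene (GRCm38 chr14:54142851-54148868, plus strand), lies within the same locus of chromosome 14 as the alpha constant gene Trac (chr14:54220521-54224206). On chromosome 13 lie the gamma constant genes Tcrg-C1 (chr13:19214103-19217024), Tcrg-C2 (chr13:19304649-19307551, minus strand) and Tcrg-C4 (chr13:19344558-19352756). Tcrg-C1 had a UMI in 88.5% of the members, Tcrg-C2 in 64.8% and Tcrg-C4 in 78.0%. Transcripts of Tcrg-C1 and Tcrg-C2 were 96.2% identical over 909 aligned bases, so the split of reads between these copies is uncertain, whereas Tcrg-C4 was 81.7% identical to Tcrg-C1 over 482 bases.

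Variable genes of the gamma chain were seen in 3′ reads for part of the cells. Trgv2 had a UMI in 144 members, Tcrg-V7 in 61, Tcrg-V1 in 55 and Tcrg-V4 in 29, while Tcrg-V5 and Tcrg-V6 were at 0 in all 287. No UMI of these 4 was found in 94 members (32.8%, median depth 3685.5 UMIs), and 82 members (28.6%) had UMIs of 2 or more, so a variable gene seen in a cell need not be the one in its receptor. The 71 members with Trgv2 alone had a Gzma UMI in 88.7%, and the 12 with Tcrg-V1 alone in 83.3%, the 21 with Tcrg-V7 alone in 71.4% and the 7 with Tcrg-V4 alone in 57.1%. These shares rest on few cells of 4 mice and are given as a description.

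Alpha and beta constant genes were not absent. Trac had a UMI in 56.1% of the members, Trbc1 in 67.9% and Trbc2 in 91.6%. In the B cells with a Cd79a UMI, which should lack these transcripts, the shares were 0.343%, 0.258% and 0.687%. Trbc1 and Trbc2, whose transcripts were 95.9% identical over 508 bases, were at 586 ± 141 and 904 ± 239 CPM (SD, n = 4 mice). After thinning every cell to 1000 UMIs, the share with a Trac UMI was 19.8%, against 31.5% in CD8b1-gated T cells (a CD3 and a Cd8b1 UMI, 0 UMIs of Trdc, Cd4 and Cd79a, 72 cells) and 45.3% in CD4-gated T cells (a CD3 and a Cd4 UMI, 0 UMIs of Trdc, Cd8b1 and Cd79a, 34 cells). In the same order of gates the thinned shares were 37.4%, 38.4% and 40.0% for Trbc1 and 56.8%, 68.5% and 75.6% for Trbc2. Whether these UMIs came from transcripts of an unrearranged locus or from those of a complete chain cannot be told apart in 3′ counts. The 3 genes summed to 1887, 1999.9, 1787 and 1197 CPM in the members and to 2233, 2047, 3145 and 1256 CPM in the CD8b1-gated cells. With Trac excluded in addition, the share of members with a Cd8a UMI, averaged over the mice, was 72.7%.

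The members were next compared with the CD8b1-gated T cells of the same mice, a comparison that shows which genes set gamma delta cells of the jejunum apart from conventional CD8 T cells in the same libraries. Among the genes called, Fcer1g, Tyrobp, Tcrg-C1, Cd7, Gzma and Gzmb were higher in the members, and S1pr1, Ccr7, Lef1, Il7r and Ms4a4b were lower. S1pr1, Ccr7 and Lef1 had 1, 2 and 4 UMIs in all members. Called genes this near 0 in 1 gate entered the test through the other gate alone. So did Ms4a4b, Cd6, Chn2 and Tcrg-C1, which had few UMIs in 1 gate. Counts were summed per mouse and gate and fitted with edgeR's quasi-likelihood test with the mouse as a block, leaving out the 7 genes of the rule. Of 3218 genes tested, 37 were higher in the gamma delta cells (1.15%) and 17 were lower (0.528%) at an adjusted p (Benjamini-Hochberg) under 0.05. The CD8b1-gated cells numbered 7, 12, 41 and 12, so their values are far less exact than those of the members. A single CD8b1-gated cell of Control replicate 1 held 46.0% of its gate's UMIs and was rich in enterocyte RNA.

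Among genes of the receptor and its signalling, Fcer1g, an adaptor with an activation motif that pairs with Fc receptors and can replace the CD3 zeta chain, was at 2510.3, 2845, 2299 and 1009.6 CPM in the members and at 98.2, 0, 219.5 and 139.6 CPM in the CD8b1-gated cells. On the log2 scale it was higher by 4.04 ± 0.65 (SE) in the members (adjusted p = 0.0175 by edgeR). Tyrobp, the DAP12 adaptor of natural killer receptors, was at 1607, 1744, 1439.6 and 576 CPM against 98.2, 0, 165 and 93.0 CPM, with a log2 fold change of 3.64 ± 0.60 (adjusted p = 0.0175). In no mouse did the gates overlap for either gene. Beside them, Tcrg-C1 was at 991, 1074, 981 and 547 CPM against 0, 109, 16.9 and 0 CPM (5.21 ± 0.67, adjusted p = 0.00977) and Tcrg-C2 was also called. Tcrg-C1 entered the test through the members alone, so its call supports nothing beyond these counts.

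Of 13 CD3 and receptor signalling genes tested, 3 rose (Fcer1g, Tyrobp and Ptpn6, the SHP-1 phosphatase) and 2 fell. Those that fell were Lat, the membrane scaffold of the T cell receptor, with a log2 fold change of -1.99 ± 0.33 (adjusted p = 0.0182), and Cd6, an inhibitory co-receptor, at 0, 3.82, 17.0 and 4.92 CPM against 73.6, 670.3, 122 and 81.4 CPM (-4.56 ± 0.65, adjusted p = 0.0130). Cd6 entered the test through the CD8b1-gated cells alone, so its call supports nothing beyond these counts. The median log2 fold change of the list was 0.28, against 0.02 over all genes tested. The leading genes of the list were Cd3g, part of the rule (2922 ± 1331 CPM, mean ± SD of 4 mice), Fcer1g, Tyrobp and Ptprc, the leukocyte phosphatase CD45 (1279.8 ± 218 CPM). Lat2, a scaffold better known from B cells and mast cells, was called higher outside the lists.

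Of 20 intraepithelial identity genes tested, 2 passed the test, Cd7 and Kit, and 13 had an unadjusted p under 0.05, of which 12 were higher (over all genes tested, 6.81% were higher and 4.57% lower at that p), with a list median of 0.83 on the log2 scale. Cd7 was at 380.4, 652, 709 and 698 CPM in the CD8b1-gated cells, below every value in the members, a log2 difference of 2.22 ± 0.32 (edgeR adjusted p = 0.0130). Kit, the stem cell factor receptor, was at 149, 157, 158 and 64.0 CPM in the members and at 0 UMIs in all 72 CD8b1-gated cells, which is at least 22.0-fold higher against a floor of 3 counts over the gate. Kit passed the filter on low counts through the members alone, so its call supports nothing beyond these counts. The mast cell genes Mcpt1, Mcpt2 and Cpa3 were at 0 UMIs in the members. Glp1r, the receptor of the gut hormone GLP-1, was at 223, 226, 182 and 73.9 CPM, with 3 UMIs in the CD8b1-gated cells, which gave a ratio of 28.0 (9.47 to 136, counting error only). Glp1r also entered the test through the members alone.

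Other genes with the lowest p among those higher were Chn2, a Rac GTPase-activating protein, at 163, 245, 194 and 177 CPM against 24.5, 36.2, 16.9 and 11.6 CPM (3.04 ± 0.39, adjusted p = 0.00977), and Fgl2, a secreted fibrinogen-like protein, at 581, 715, 751 and 339.8 CPM against 98.2, 163, 76.0 and 93.0 CPM (2.36 ± 0.31, adjusted p = 0.00977). Chn2 entered the test through the members alone, so its call supports nothing beyond these counts. The inhibitory receptor gene Cd200r1 differed by 3.54 ± 0.52 (adjusted p = 0.0134), and its relative Cd200r2 had 1 UMI in the CD8b1-gated cells (ratio 75.4, 13.4 to 2989). Cd200r2 entered the test through the members alone, so its call supports nothing beyond these counts. Members of the Cd200r family are near copies of each other, so reads may be split between them. Il2rb, the beta chain shared by the receptors of interleukin 2 and interleukin 15, was at 531, 470.3, 471 and 345 CPM against 49.1, 54.4, 131 and 93.0 CPM (2.27 ± 0.35, adjusted p = 0.0161). Lag3, an inhibitory receptor, was the only called gene of 8 tested in its list, with 2.88 ± 0.53 (adjusted p = 0.0281).

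Of 14 transcription factors tested, 1 rose and 3 fell. Ikzf2, which encodes the zinc finger factor Helios, was at 825, 845, 646 and 497 CPM against 61.4, 72.5, 80.2 and 198 CPM (2.66 ± 0.39, adjusted p = 0.0130). Lef1, a partner of beta-catenin that marks naive T cells, was at 0, 3.82, 2.62 and 4.92 CPM against 123, 127, 338 and 69.8 CPM (-6.25 ± 0.58, adjusted p = 0.00140). With 4 UMIs in all members, Lef1 entered the test through the CD8b1-gated cells alone, so its call supports nothing beyond these counts. Bcl11b, a factor of T lineage commitment, was lower but still present, at 92.1, 80.3, 91.5 and 78.8 CPM against 294, 579.7, 224 and 244 CPM (-1.99 ± 0.31, adjusted p = 0.0172). The third, Klf2, which drives genes of lymphocyte exit from tissue, fell by 4.57 ± 0.54 (adjusted p = 0.00814), and Satb1, a chromatin organiser outside the list, fell by 2.92 ± 0.45 (adjusted p = 0.0161).

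Of 10 homing and adhesion genes tested, 2 were called lower in the members, S1pr1 and Ccr7, and none higher. S1pr1, the receptor that lets lymphocytes leave tissue, had 1 UMI in all 287 members and 49.1, 54.4, 152 and 93.0 CPM in the CD8b1-gated cells, an inverse ratio of 168 (28.8 to 6755). Ccr7, the lymph node homing receptor, had 2 UMIs (inverse ratio 70.7, 18.4 to 603). Both genes entered the test through the CD8b1-gated cells alone, so their calls support nothing beyond these counts. From the list of inhibitory and co-stimulatory receptors, Cd28 had a UMI in 1.05% of the members and 27.8% of the CD8b1-gated cells.

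Ms4a4b, a tetraspan membrane protein of T cells, had the lowest p of all genes called, at 3.54, 19.1, 19.6 and 0 CPM against 135, 417, 679.7 and 58.1 CPM (-5.14 ± 0.39, adjusted p = 0.000590). It entered the test through the CD8b1-gated cells alone, so its call supports nothing beyond these counts. Its relative Ms4a6b fell by 2.13 ± 0.33 (adjusted p = 0.0165). Il7r, the receptor chain of interleukin 7 that keeps naive and memory T cells alive, was at 3.54, 19.1, 14.4 and 54.2 CPM against 36.8, 362, 329 and 221 CPM (-3.70 ± 0.52, adjusted p = 0.0130). The remaining genes that fell were Thy1, Epsti1, Klf3, Slamf6, Pdlim1 and Nfkbia, and the remaining genes that rose included Gcnt1, Capn3, Rgs1, Car2, Klra5 and Irf8. Klrb1a, also called higher, was at 0 UMIs in the CD8b1-gated cells and entered the test through the members alone. None of the lists of heat shock, interferon-stimulated, cell cycle, metabolism or cell death genes held a gene called in this comparison, with 9, 10, 6, 9 and 8 members tested.

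**Figure D2:**
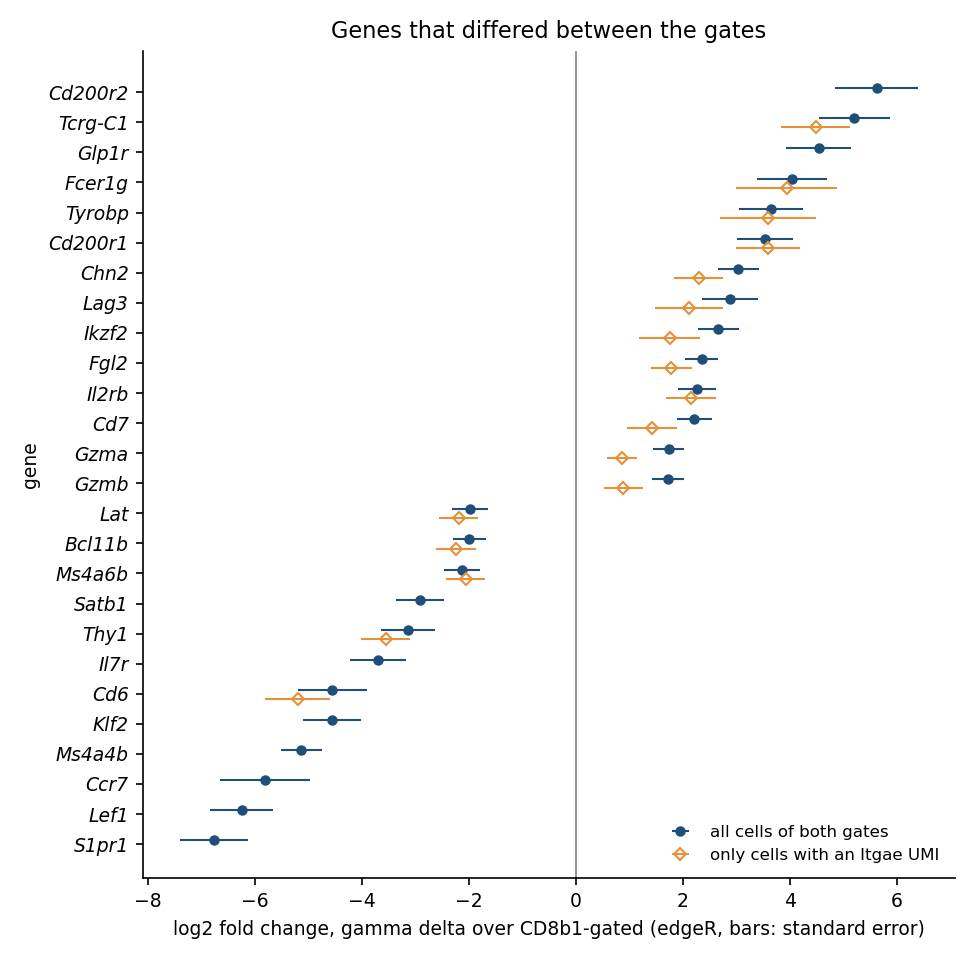
Log2 fold changes of called genes between the gamma delta cells and the CD8b1-gated T cells of the same mice, from edgeR with the mouse as a block, with bars of 1 SE on each side and the fit limited to cells with an Itgae UMI drawn beside it where a gene could be tested there. Points to the right of 0 are higher in the gamma delta cells, such as Tcrg-C1 at 5.21 and Fcer1g at 4.04, and points to the left are lower, such as Ms4a4b at -5.14. Tcrg-C1 and Ms4a4b entered the test through 1 gate alone.

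The count of calls depended on the libraries. It was 0 without EC-Foxc-DKO replicate 1, 4 without Control replicate 2, 68 without EC-Foxc-DKO replicate 2 and 215 without Control replicate 1, and it was 173 without cells holding 5% or more of UMIs on the enterocyte list. In each of these fits every one of the 54 genes that could be tested kept its direction.

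Since the CD8b1-gated cells included cells with markers of recirculation, the comparison was repeated, after the data had been seen, with only cells that had an Itgae UMI in both gates (264 against 37 cells). Of 2093 genes tested, 9 were higher (0.43%) and 12 lower (0.573%), and 13 of these 21 were among the 54 genes called before, all in the same direction. Genes called higher again were Tcrg-C1 (log2 fold change 4.49), Cd200r1 (3.59), Chn2 (2.30), Il2rb (2.15), Fgl2 (1.78), Snx18 and Capn3, and lower again were Cd6 (-5.20), Thy1 (-3.56), Bcl11b (-2.24), Lat (-2.19), Ms4a6b and Epsti1. Of these, Tcrg-C1, Chn2 and Cd6 again entered the test through 1 gate alone, so their calls support nothing beyond the counts. Xcl1, the ligand of the chemokine receptor of cross-presenting dendritic cells, was called higher here (3.93 ± 0.64). Fcer1g (3.94 ± 0.94), Tyrobp (3.60 ± 0.90), Gzma (0.86 ± 0.29) and Gzmb (0.89 ± 0.36) were on the same side as before and did not pass. Cd7, called before, did not pass either (1.43 ± 0.47, adjusted p = 0.302). Of 18 identity genes tested there, 1 was called, Xcl1, and at an unadjusted p under 0.05 there were 2 higher and 1 lower (4.87% and 2.77% over all genes tested), with a list median of 0.26 on the log2 scale in place of 0.83.

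Ifng, the gene of interferon gamma, was called lower in the members in that comparison. It was at 7.19, 12.1, 18.9 and 0 CPM in the gamma delta cells and at 164, 672, 92.6 and 179.7 CPM in the CD8b1-gated cells with an Itgae UMI, with no overlap within any mouse (log2 fold change -4.20 ± 0.60). Over all members, Ifng had a UMI in 4.18%, against 19.4% of the CD8b1-gated cells. With so few UMIs in the members, Ifng entered that test through the CD8b1-gated cells alone, so its call supports nothing beyond these counts.

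Against the CD4-gated T cells, which numbered 1, 3, 26 and 4, 127 of 2579 genes tested were higher in the members (4.92%) and 46 lower (1.78%) by edgeR at an adjusted p under 0.05. The 10 with the lowest p among those higher were Ccl5, Gzma, Cd7, Fcer1g, Gzmb, Tyrobp, Cd8a, Rgs1, Ccl4 and Xcl1, and the 10 among those lower included S1pr1, Dapl1, Cd2, Cd28, Tspan32, Icos, Klf2, Gm2682 and Kbtbd11. Ccl5 was at 22497, 19410, 26487 and 12140 CPM in the members and at 0, 0, 12.2 and 0 CPM in the CD4-gated cells (2 UMIs, ratio 2182, 604 to 18014, counting error only). Icos, a co-stimulatory receptor of helper T cells, was at 3.54, 0, 1.31 and 9.85 CPM against 1327, 173, 465 and 116 CPM (-6.86 ± 0.80, adjusted p = 2.81e-15). Tyrobp, Cd8a, Ccl4 and Xcl1 were at 0 UMIs in all 34 CD4-gated cells, as were 33 of the 127 genes called higher, and such genes entered the test through the members alone. Genes near 0 in 1 gate, such as Ccl5 and Icos, also entered it through the other gate alone. Calls of either kind support nothing beyond the counts. Of the fixed lists, 13 of 20 identity genes tested rose (6 of them at 0 UMIs in the CD4-gated cells) and 8 of 10 cytotoxic granule genes (none at 0), and none of either fell. All 8 enterocyte genes tested were also called higher in the members, with summed levels of the list of 2960, 975, 11875 and 78452 CPM against 5044, 808, 1554 and 1511 CPM. Without cells holding 5% or more of UMIs on that list, 0 of 7 enterocyte genes were called, and 130 of the 173 genes were called again among 178. The same members enter both gate comparisons, and the CD4 gate of Control replicate 1 was a single cell.

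Of the 14 genes of the cytotoxic granule list, 9 averaged over 100 CPM in the members, led by Gzma, Gzmb, Nkg7 and Srgn. Gzma, granzyme A (GRCm38 chr13:113093825-113100981, minus strand), was at 18992, 25620, 24640 and 12760 CPM in the members and at 4958, 8642, 4564 and 4291 CPM in the CD8b1-gated cells, a log2 difference of 1.74 ± 0.29 (edgeR adjusted p = 0.0180). Gzmb, granzyme B (chr14:56258838-56262260, minus strand), was at 3215, 4225, 4689 and 1418 CPM against 552, 1739, 949.9 and 558 CPM (1.72 ± 0.30, adjusted p = 0.0196). These were the 2 calls among 12 cytotoxic granule genes tested. Nkg7, a granule membrane protein, and Srgn, the granule proteoglycan serglycin, averaged 2011 ± 559.9 and 1336 ± 206 CPM (SD, n = 4 mice). Granzyme genes resemble each other in sequence, so a small part of their reads may be split between copies.

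The cytokine and chemokine list was led by Ccl5, which attracts T cells and other leukocytes and had a UMI in 97.9% of the members. Ccl4 averaged 924 ± 519.6 CPM, Xcl1 660 ± 258 CPM and Ccl3 321 ± 199.6 CPM (SD, n = 4 mice), and no gene of the cytokine list was called against the CD8b1-gated cells among 7 tested. Il17a and Il22, the cytokines of the type 17 gamma delta cells, had a UMI in 0 of 287 members, which by a floor of 3 counts allows a share of cells with a UMI of up to 1.05% and sets no limit on cells that express them below detection. Il17f, Il10 and Fgf7 were also at 0, as were the receptors Il23r, Il1r1 and Ccr6.

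The remaining lists are given by their leading members, as mean CPM ± SD over the 4 mice. Among natural killer receptors these were Klrd1 (609 ± 84.4), Hcst, the DAP10 adaptor (463 ± 147), Klra5 (432 ± 149) and Cd226 (65.9 ± 28.0), while Klrg1 was at 0. Homing and adhesion was led by the integrin chain Itgb7, which pairs with CD103 (217 ± 25.3), the gut homing receptor Ccr9 (201 ± 53.3), Cxcr6 (181 ± 67.3) and Itgb2 (134 ± 48.1). Cytokine receptors after Il2rb were Ifngr1 (232 ± 25.8), the common gamma chain Il2rg (163 ± 57.9) and Il21r (145 ± 35.0). The receptors Cd160 (565 ± 172), Cd244a (364 ± 116) and Cd96 (203 ± 61.5) came before Lag3 (165 ± 85.2). Beside Ikzf2, the factors Id2 (531 ± 139), Runx3 (405 ± 147) and Ikzf3 (259.8 ± 76.0) led their list, and Foxp3 and Zfp683 were at 0. For every gene named in these lists the SD over mice was smaller than the mean.

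Stress, division and survival genes were present as follows, again as mean CPM ± SD over 4 mice. Immediate early genes were led by Junb (1661 ± 421), Fos (1003 ± 324), Btg2 (882 ± 233) and Nr4a2 (719 ± 247). The chaperones Hsp90ab1 (1508 ± 193), Hspa8 (1307 ± 260.5), Hspa5 (701 ± 53.1) and Dnaja1 (507 ± 63.8) led the heat shock list. Ly6e (446 ± 113), Ifi203 (189.9 ± 67.8) and Ifi27l2a (119 ± 71.7) were among the 4 highest interferon-stimulated genes. Of the division genes H2afz (554 ± 50.6), Hmgb2 (342 ± 47.5), Tubb5 (199 ± 72.2) and Pcna (92.9 ± 23.8) were highest, and Mki67, a protein of dividing cells, had a UMI in 3.14% of the members. Bcl2 (789 ± 178), Mcl1 (234 ± 31.2) and Bcl2a1b (185 ± 39.6), all inhibitors of apoptosis, came before Fasl (174 ± 69.3), the Fas ligand. The metabolism list was led by the enterocyte genes Fabp2 (4696 ± 7132) and Fabp1 (1642 ± 2393), whose SD over mice exceeded the mean, ahead of Gapdh (749 ± 261) and Ldha (454 ± 353).

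Gzma and Gzmb were mostly found together in a cell or not at all. Of the 287 members, 210 had a UMI of both Gzma and Gzmb, 67 had a UMI of neither, 8 had Gzma alone and 2 had Gzmb alone. Cells with both held a median of 126.5 Gzma UMIs (18 to 1082) and 17.5 Gzmb UMIs (1 to 204), and 20 of them held only 1 to 3 Gzmb UMIs. The cells with neither had a median depth of 6292, 5107, 4680 and 3174 UMIs in the 4 mice, against 4366.5, 6292.5, 4498.5 and 3306 UMIs in the cells with both, so they were shallower in Control replicate 2 and EC-Foxc-DKO replicate 2 and deeper in the other 2 mice. They made up 28.3, 31.1, 18.6 and 27.3% of the members by mouse, a mean of 26.3 ± 5.40% (SD, n = 4 mice), and 25.0% of the 244 members with at least 3000 UMIs. Both EC-Foxc-DKO values lay below both Control values (exact two-sided permutation p = 0.333, the smallest that 2 against 2 mice allow), but without the 6 cells rich in enterocyte RNA EC-Foxc-DKO replicate 2 came to 31.0%, between the Control mice. As a measure of background, a Gzma UMI was found in 4.38% of B cells. Whether it came from free RNA or from doublets was not tested.

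**Figure D3:**
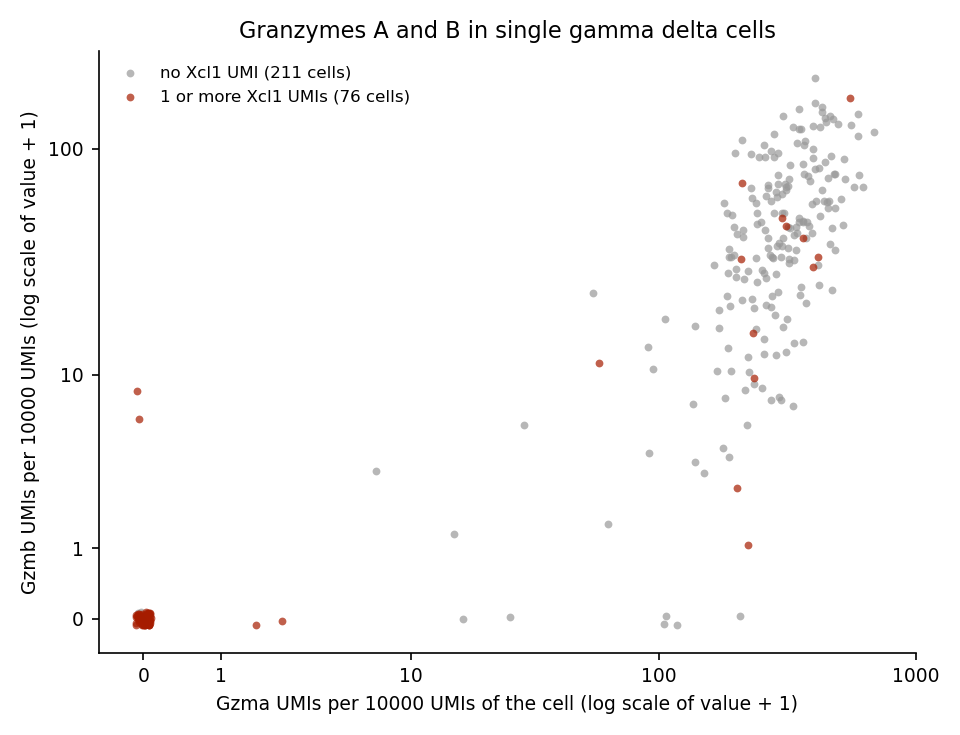
Gzma and Gzmb UMIs per 10000 UMIs in each of the 287 gamma delta cells, on log axes after adding 1, with cells that held an Xcl1 UMI in red and the others in grey. The 67 cells with neither gene sit in the lower left corner, apart from the 210 cells with both in the upper right, and the 10 cells with 1 of the 2 genes lie along the axes. Most of the red cells are in the lower left corner.

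The classes were formed after the values had been seen and are described without a test, using cells with under 5% of UMIs on the enterocyte list. In Control replicate 1, 2 of the 15 cells with neither granzyme had 0.5% or more of their UMIs on the macrophage list and held 30.1% of that class's UMIs, and the list summed to 3190 CPM in the class against 12.8 CPM in the cells with both. Xcl1 was at 1312, 1859, 2446 and 6538 CPM in the cells with neither granzyme and at 0, 27.2, 25.1 and 477 CPM in the cells with both. Over all members it had a UMI in 59 of 67 cells with neither granzyme (88.1%) and in 13 of 210 with both (6.19%). Ccl5 ran the other way, at 6649, 5180.4, 5798 and 3138 CPM against 34644, 25285, 34298 and 26584 CPM, and Ccl4 was at 322, 95.7, 14.3 and 37.4 CPM against 2206, 909.6, 1725 and 759.9 CPM. The lowest mouse of one class lay above the highest mouse of the other for Xcl1, Ccl5 and Ccl4. Without the 2 cells Control replicate 1 came to 1518 CPM for Xcl1, 9170.1 CPM for Ccl5 and 187 CPM for Ccl4, which kept this order. Single cells held much of the Xcl1. A single cell had 125 of the 175 Xcl1 UMIs of the cells with neither granzyme in EC-Foxc-DKO replicate 2, another 195 of 343 in EC-Foxc-DKO replicate 1, and a further cell all 37 of the cells with both in EC-Foxc-DKO replicate 2. Without the cell with the most Xcl1 UMIs in each mouse and class, Xcl1 was at 1149, 1367, 1145 and 2219 CPM in the cells with neither granzyme and at 0, 11.2, 19.9 and 0 CPM in the cells with both, and the classes again did not overlap.

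Tcf7, a factor of naive and memory-like T cells, was at 235, 246, 207 and 224 CPM in the cells with neither granzyme and at 0, 0, 1.80 and 25.8 CPM in those with both. Ltb, the membrane lymphotoxin, was at 269, 314, 399 and 411 CPM against 63.8, 32.7, 68.2 and 64.4 CPM. Kit was at 287, 246, 435 and 262 CPM against 57.4, 125, 96.9 and 64.4 CPM, and Cd160, a receptor of the herpesvirus entry mediator, at 1182, 1339.5, 1597 and 859 CPM against 274, 458, 361 and 489 CPM. From the fixed lists, and named for their difference, Cd226, Ahr, Ccr9, Cd44, Id3 and Bcl11b were also higher in the cells with neither granzyme in 4 of 4 mice, and Prf1 (perforin), Prdm1, Itga1, Il2rb, Klrd1, Itgb7, Lag3 and Gzmk were lower in 4 of 4. Without the 2 cells with macrophage RNA, Klrd1 in Control replicate 1 turned, at 734 against 689 CPM, and each of the other genes just named kept its order in that mouse. Further list genes, not named here, also ran 1 way in 4 of 4 mice. Ctsw, of the cytotoxic granule list, was higher in the cells with neither granzyme, at 608, 834, 685 and 785 CPM against 523, 566, 553 and 374 CPM. These values include the 2 cells. Prf1 and Gzmk rested on 75 and 44 UMIs in all. Both classes carried the adaptor Fcer1g, with a UMI in 86.6 and 90.5% of their cells, and Cd8a had one in 71.6 and 93.3%.

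**Figure D4:**
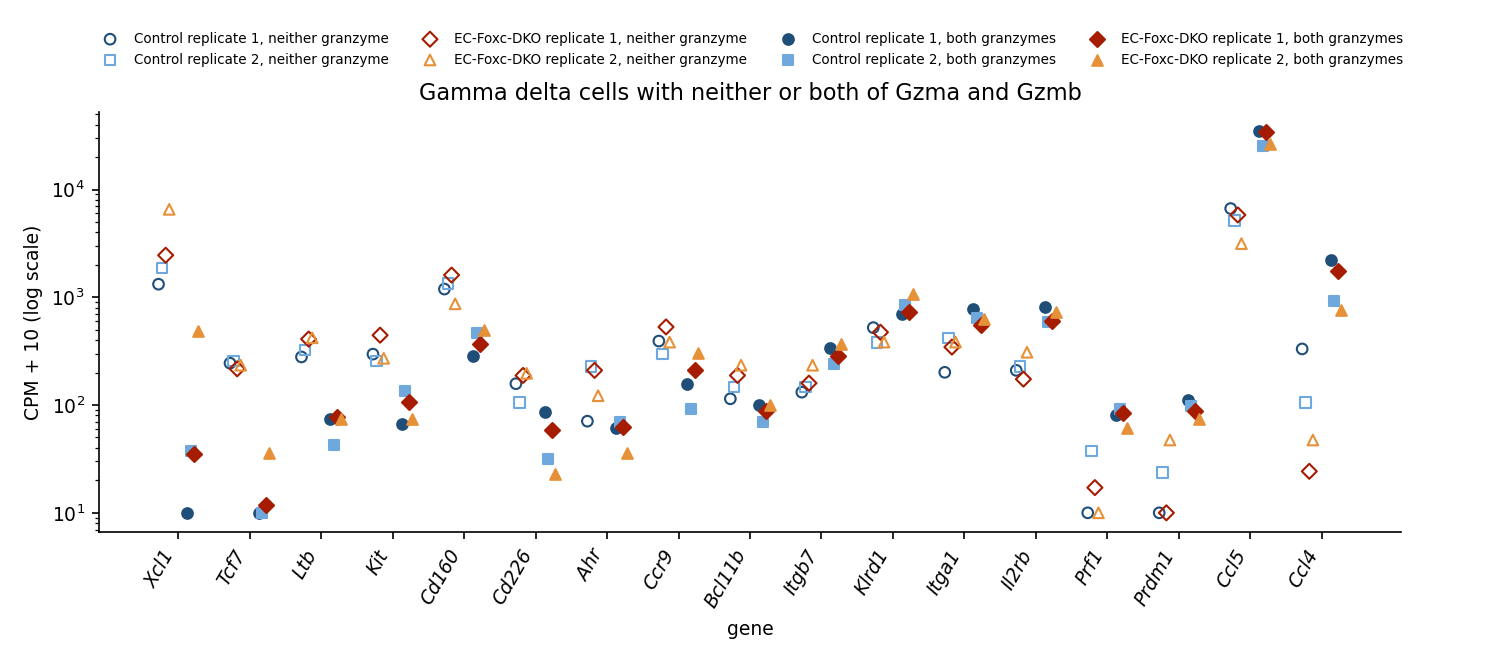
Levels of genes in the gamma delta cells with neither granzyme (open symbols) and with both (filled symbols) by mouse, as CPM + 10 on a log axis. Xcl1, Tcf7, Ltb and Kit lie higher in the cells with neither granzyme and Ccl5, Ccl4 and Prf1 higher in the cells with both, in each of the 4 mice.

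The upstream sequences of the 2 granzyme genes, which were found together in the same cells, and of Xcl1, which was mostly found in the others, are shown for comparison. Each is the 250 bases before the gene's RefSeq start on build GRCm38.p6, written 5′ to 3′ on the minus strand of the genome, at chr13:113100982-113101231 (Gzma), chr14:56262335-56262584 (Gzmb) and chr1:164935523-164935772 (Xcl1). Capitals mark the RUNX letters ACCACA or their reverse complement TGTGGT.
Gzma: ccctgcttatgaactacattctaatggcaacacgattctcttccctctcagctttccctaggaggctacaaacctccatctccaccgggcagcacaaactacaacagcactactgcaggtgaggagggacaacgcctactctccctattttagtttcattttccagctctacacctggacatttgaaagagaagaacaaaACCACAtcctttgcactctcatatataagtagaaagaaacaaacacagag
Gzmb: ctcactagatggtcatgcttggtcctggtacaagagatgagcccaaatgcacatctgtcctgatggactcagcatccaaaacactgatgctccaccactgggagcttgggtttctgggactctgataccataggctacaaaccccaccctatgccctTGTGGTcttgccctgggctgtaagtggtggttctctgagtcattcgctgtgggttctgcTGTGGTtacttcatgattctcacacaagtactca
Xcl1: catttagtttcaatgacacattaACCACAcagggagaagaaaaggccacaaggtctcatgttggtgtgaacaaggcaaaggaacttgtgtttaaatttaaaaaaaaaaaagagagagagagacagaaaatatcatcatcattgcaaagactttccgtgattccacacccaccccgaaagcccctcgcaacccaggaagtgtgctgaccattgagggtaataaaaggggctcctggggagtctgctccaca
All 3 windows held the RUNX letters, once in Gzma (50 bases before the start), 2 times in Gzmb (93 and 34 bases) and once in Xcl1 (227 bases), on either strand. Of 32851 RefSeq windows of the same length, 14.05% held them. The AP-1 letters TGANTCA, which read the same on both strands, were found in Gzmb alone and in 6.75% of all windows. A match of letters is a description of the sequence and no measurement of binding.

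Between the genotypes, the share of gamma delta cells among T cells was 61.6, 57.0, 49.5 and 30.8%, with exact 95% intervals of 50.5 to 71.9, 45.3 to 68.1, 43.9 to 55.2, 22.3 to 40.5%. The mean was 59.3 ± 3.30% in Control and 40.2 ± 13.2% in EC-Foxc-DKO mice (SD, n = 2 each). Both EC-Foxc-DKO mice lay below both Control mice, and an exact two-sided permutation test over the 4 mice gave p = 0.333, the smallest this design allows, so the difference of -19.1 percentage points could not pass a threshold of 0.05. The order did not hold at every mitochondrial limit. At 20% it did, with 49.6, 61.2, 43.7 and 32.0%. At 5% the shares were 75, 52.9, 53.8 and 50% and with no limit they were 36.5, 45.8, 39.5 and 29.1%, so at 5% Control replicate 2 lay below EC-Foxc-DKO replicate 1, and without a limit the Control values of 36.5 and 45.8% enclosed the 39.5% of EC-Foxc-DKO replicate 1. Of all cells within the 10% limit, the members were 3.44, 11.7, 5.50 and 2.96% (permutation p = 0.667), in libraries that held 1019, 106, 638 and 721 epithelial cells with an Epcam UMI and no UMI of Ptprc, Cd79a or CD3.

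**Figure D5:**
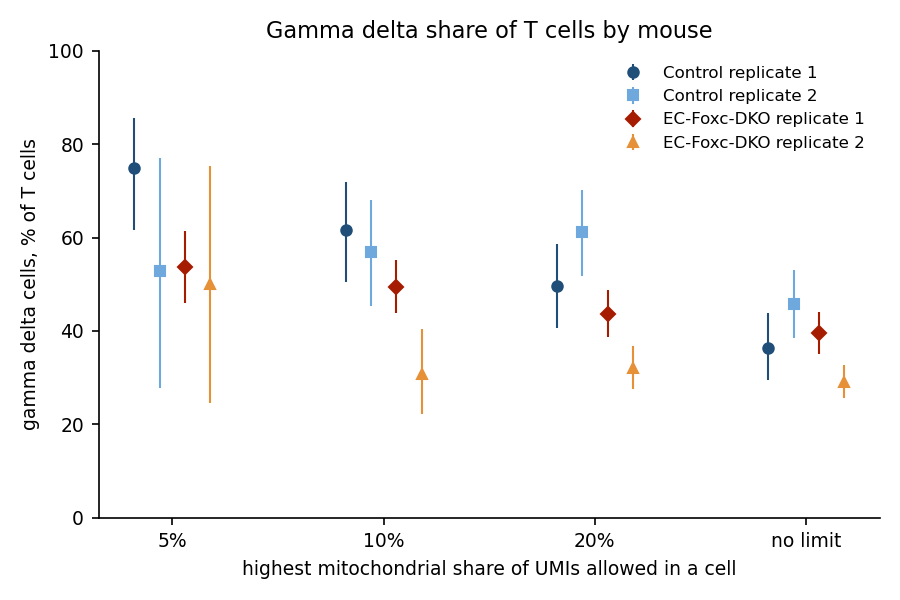
Gamma delta cells as a percentage of T cells in each mouse under 4 limits on the mitochondrial share of UMIs, with exact 95% intervals that cover counting error only. At the 10% limit both EC-Foxc-DKO mice, at 49.5 and 30.8%, lie below the Control mice at 61.6 and 57.0%, and at 5% and without a limit the genotypes overlap.

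Gene levels in the members were then compared between EC-Foxc-DKO and Control mice, the contrast for which the study was made. Of 4164 genes tested with edgeR, 0 passed an adjusted p of 0.05 (0.0%), while DESeq2 called 40, all higher in EC-Foxc-DKO mice. At an unadjusted p under 0.05 edgeR gave 189 higher (4.54%) and 38 lower (0.913%). The count was 0 without Control replicate 1, 23 without Control replicate 2, 461 without EC-Foxc-DKO replicate 1 and 38 without EC-Foxc-DKO replicate 2. On simulated counts of this design, 0 of 165 genes changed by 1 on the log2 scale were recovered, 95 of 165 changed by 2 and 162 of 164 changed by 3. These counts were drawn with 1 fixed dispersion for every gene. The recovery holds for such counts and is no measure of power in counts that vary more.

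The 5 genes with the lowest p among those higher in EC-Foxc-DKO mice did not pass the threshold and were Sfn (3.00 ± 0.43, adjusted p = 0.286), Apoc2 (3.70 ± 0.59), Muc3 (3.69 ± 0.63), Krt20 (3.50 ± 0.61) and Apoc3 (2.99 ± 0.52), all of which are genes of epithelial cells. All 5 were called with DESeq2, and by edgeR without the low-count filter, with Trac excluded, with the replicate number as a block and with the crossed block. In the fits without EC-Foxc-DKO replicate 1 or without EC-Foxc-DKO replicate 2 they differed by 2.43 to 4.07. Those fits each leave 1 EC-Foxc-DKO mouse, assumed to vary like the Control mice. All 12 enterocyte genes had an unadjusted p under 0.05, with a median log2 fold change of 4.48. Their summed level in the members was 2960, 975, 11875 and 78452 CPM, with Reg3b the most abundant and none at 0. Without the 6 cells that had 5% or more of UMIs on that list, edgeR again called 0 genes, and 87 had an unadjusted p under 0.05. Apoc2, Krt20 and Apoc3 then differed by 0.70, 0.14 and -0.014, and Sfn and Muc3 had no value in that fit.

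Among genes lower in EC-Foxc-DKO mice, the 5 with the lowest p were Spp1, osteopontin (-1.80 ± 0.43, adjusted p = 0.300), Klrb1 (-2.01 ± 0.51), the Fc receptor Fcgr3 (-2.20 ± 0.59), Ccrl2 (-1.47 ± 0.40) and the cell death gene Bcl2l11 (-1.13 ± 0.32), and none passed in the edgeR fit of the 4 mice without a block. Spp1, Klrb1 and Fcgr3 passed with no low-count filter (adjusted p = 0.00729, 0.0387 and 0.00751), Spp1 and Fcgr3 with the replicate number as a block (0.0158 and 0.0118), Spp1 and Klrb1 with the crossed block (0.0371 and 0.0315), and Spp1 without EC-Foxc-DKO replicate 2 (0.0425). Spp1 was at 198, 107, 39.2 and 44.3 CPM. Both EC-Foxc-DKO values lay below both Control values. Without Control replicate 1, whose members summed to 1306 CPM on the macrophage list, Spp1 differed by -1.34, Klrb1 by -2.42 and Fcgr3 by -1.45. The part of macrophage RNA in these differences was not tested.

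With all 4 mice, Gzma, Gzmb, Ccl5, Cd7, Itgae and Cd8a did not pass the test between the genotypes. Gzma was at a mean of 22306 ± 4687 CPM in Control and 18700 ± 8400 CPM in EC-Foxc-DKO mice (SD, n = 2 each), a log2 difference of -0.17 ± 0.30 (edgeR adjusted p = 0.993). Without the 6 cells rich in enterocyte RNA the EC-Foxc-DKO mean for Gzma was 24374 ± 2314 CPM, from 26011 and 22738 CPM, while the 2 mice came to 4909 and 2499.8 CPM for Gzmb and to 27967 and 20573 CPM for Ccl5. Ccl5 differed by -0.03 ± 0.32 (adjusted p = 0.997), Cd7 by -0.37 ± 0.32 and Gzmb by -0.21 ± 0.45, and without the same 6 cells Gzma, Gzmb and Ccl5 turned to the other side of 0, at 0.12, 0.0065 and 0.21, while Cd7 and Cd8a came to -0.089 and -0.35. Itgae differed by -0.41 ± 0.29 and Cd8a by -0.63 ± 0.34. Without EC-Foxc-DKO replicate 1, 3 of these 6 genes were called lower by edgeR, Cd8a (-1.27, adjusted p = 0.00947), Gzmb (-1.26, adjusted p = 0.00924) and Cd7 (-0.94, adjusted p = 0.0250). That fit leaves EC-Foxc-DKO replicate 2, with 48.6% of its UMIs in 4 cells rich in enterocyte RNA, as the lone mouse of its genotype, assumed to vary like the Control mice. Of 22 identity, 12 cytotoxic granule, 9 receptor, 12 receptor signalling and 7 cytokine genes tested, 0 had an unadjusted p under 0.05, against 4.54% higher and 0.913% lower over all genes tested. The same count was 0 for 7 homing, 7 cytokine receptor, 8 inhibitory and co-stimulatory, 19 immediate early, 9 heat shock and 11 interferon genes. Among 13 transcription factors 2 had such a p, Runx1 (1.59 ± 0.52) and Tcf7 (-0.95 ± 0.39). Both values include the 6 cells rich in enterocyte RNA, and the levels of Tcf7 without them are given above by granzyme class. Lower at that p were also 1 of 6 natural killer receptors, Klra5 (-0.76 ± 0.28), and 1 of 10 cell death genes, Bcl2l11 (-1.13 ± 0.32). Higher at that p were 1 of 7 cell cycle genes, Top2a (1.29 ± 0.48), and 3 of 9 genes of lipid and energy metabolism, of which Fabp1 and Fabp2 are enterocyte genes and Ldha (1.53 ± 0.52) encodes a subunit of lactate dehydrogenase. In members with under 5% of UMIs on the enterocyte list, Ldha was at 200, 219, 214 and 187 CPM in cells with neither granzyme. In those with both it was at 293, 251, 280 and 412 CPM, and the genotypes overlapped in both classes.

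Whether the genotype difference itself differed between the gamma delta and the CD8b1-gated cells was tested as an interaction in edgeR. Of 4610 genes tested, 121 had a higher difference in the members (2.62%) and 2 a lower one (0.0434%). Among the 10 with the lowest p of the former were Slc5a1, Clca4b, Tm4sf5, Mttp, Ifi27l2b, Apoc2, Mep1b, Cyp3a13 and Cystm1, and 10 of the 12 enterocyte genes were called. Slc5a1, the glucose transporter of the brush border, was at 24.8, 3.82, 77.1 and 345 CPM in the members and at 503, 18.1, 12.7 and 23.3 CPM in the CD8b1-gated cells. Within the CD8b1 gate, Control replicate 1 was the highest mouse, and within the members EC-Foxc-DKO replicate 2 was. The single CD8b1-gated cell with 46.0% of its gate's UMIs came from the former and 4 of the 6 members rich in enterocyte RNA from the latter. Without cells holding 5% or more of UMIs on the enterocyte list, 0 genes were higher and 2 lower, and without Control replicate 1 there were 0 calls (217 at an unadjusted p under 0.05).

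The 2 lower genes were Lyz2, the lysozyme of macrophages, at 864, 3.82, 17.0 and 0 CPM in the members and 0, 0, 131 and 0 CPM in the CD8b1-gated cells, and Klra5, a natural killer receptor gene with near copies, at 524, 593, 327 and 286 CPM and 0, 0, 38.0 and 105 CPM. In both genes a fitted change against libraries at 0 is no measure of size. A single member of Control replicate 1 held 65.6% of the UMIs on a list of 6 macrophage genes in that mouse and this member and a second one 99.5%, and that list summed to 1306, 26.8, 32.7 and 4.92 CPM. Next by p, and not past the threshold, were Ier5l, Gar1 and Fyttd1.

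The lists of other cell types gave the following levels in the members. The neutrophil genes S100a8 and S100a9 and the endothelial gene Cdh5 were at 0 UMIs. Plasma cell genes summed to 223, 264, 322 and 34.5 CPM, with Igha the most abundant, B cell genes to 1409, 206, 245 and 453 CPM, with Cd74 the most abundant and Control replicate 1 far above the other 3 mice, and genes of natural killer and innate lymphoid cells to 70.8, 122, 69.3 and 103 CPM. Erythroid, stromal and endothelial genes reached at most 56.6 CPM in any mouse. Their part in the comparisons was not tested.

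The genes through which epithelial cells are known to act on gamma delta cells were read in 2484 cells with an Epcam UMI and no UMI of Ptprc, Cd79a or CD3, as a description with no test. Of the butyrophilin-like genes, Btnl1 was at 180.2, 119, 157 and 102 CPM, Btnl2 at 55.8, 20.9, 43.1 and 38.1 CPM, Btnl4 at 38.2, 30.7, 35.3 and 17.6 CPM and Btnl6 at 41.8, 28.4, 44.0 and 10.8 CPM. EC-Foxc-DKO replicate 2 was lowest for 3 of these 4, but none of the 4 separated the genotypes. Cdh1, the E-cadherin to which CD103 binds, was at 257, 152, 209 and 289.9 CPM, and the cytokine genes Il15 and Il7 were at 28.2, 19.99, 20.5 and 9.69 CPM and at 0.677, 0, 1.37 and 1.26 CPM. Ccl25, the ligand of Ccr9, was at 716, 779, 646 and 475 CPM, and Tnfrsf14, the partner of Cd160, was at 2.71, 0.930, 0.393 and 0.353 CPM. Both EC-Foxc-DKO values lay below both Control values for Ccl25 and Tnfrsf14 and above them for Il7, but Tnfrsf14 rested on 76, 2, 6 and 7 UMIs and Il7 on 19, 0, 21 and 25 UMIs in the 4 mice. An exact two-sided permutation test gives such an order of 2 against 2 mice a p of 0.333. It therefore shows no genotype difference for any of the 3, Ccl25 included. Cdh1 and Il15 overlapped between the genotypes.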

How the data were processed

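Single-cell suspensions of distal jejunum were captured with 10x Genomics 3′ chemistry, 1 library per mouse, and the authors deposited raw UMI counts per gene and barcode (32286 features) made with Cell Ranger 4.0.0 on mm10 with a Cre sequence added, per the labels. The members and the gene lists were chosen with earlier results of these data known. Cells with at most 10% of UMIs on the 13 mt- genes were kept, doublets were not removed, and libraries summed to 15557181 to 72046346 UMIs. Counts were summed per mouse and gate and tested with edgeR 4.0.16 (filterByExpr, TMM, quasi-likelihood test) with Benjamini-Hochberg adjustment in R 4.3.3, with the mouse as a block between gates, over all genes but the 7 of the rule. Other settings were DESeq2 1.42.0, its size factors, no low-count filter, each mouse left out, other limits and gates. The test was checked on simulated counts with 1 fixed dispersion for every gene. Intervals of shares are exact Clopper-Pearson intervals at 95% and, like floors of 3 counts, cover counting error only. Thinned shares are the expectation at 1000 UMIs per cell. Genes named were the markers, the 10 lowest p per direction among calls (or the 5 lowest where fewer than 5 passed), the 4 highest members of each list, the receptor constant genes and the epithelial partners, and some genes that this rule names are not reported here. Gene coordinates came from the GRCm38 annotation and promoters from RefSeq GRCm38.p6. Python 3.11.15 with scipy 1.17.1 was used for shares and permutation tests.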

Additional observations from a re-analysis of the deposited data

Results flagged for a closer look

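The genotype difference differed between the gamma delta and the CD8b1-gated T cells for 123 genes by edgeR's interaction test. For Slc5a1 the difference of the log2 fold changes was 7.40, for Lyz2 it was -13.09 and for Klra5 -7.81, and the values of Lyz2 and Klra5 were fitted against libraries at 0. The count was 2 without the 6 members and the 1 CD8b1-gated cell that held 5% or more of their UMIs on the enterocyte list, and 0 without Control replicate 1.

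Barcodes that met every condition but the mitochondrial limit were numerous in EC-Foxc-DKO replicate 2, where 97 lay between 10 and 20% and 64 above 20%, beside 33 members. In Control replicate 1 there were 11 and 2, in Control replicate 2 there were 26 and 16, and in EC-Foxc-DKO replicate 1 there were 11 and 16. These barcodes entered the shares without a limit and no test of gene levels within the 10% limit.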

How the results depend on the processing

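Between genotypes, edgeR's 0 calls in the gamma delta cells became 40 with DESeq2, 348 without the low-count filter, 29 with Trac excluded, 112 with the replicate number as a block and 0 to 461 when 1 mouse was left out. The replicate numbers share only a number (correlation of same-numbered deviations -0.23 over 4168 genes), and the crossed pairing, added after seeing the data, gave 108 calls. Against the CD8b1-gated cells, 54 calls became 247 without the filter, 11 at a 5% mitochondrial limit, 27 with Trac excluded, 0 to 215 with 1 mouse left out, 159 without Epcam-positive and enterocyte-rich cells, 173 without enterocyte-rich cells alone and 21 with Itgae-positive cells only, the last 2 chosen after seeing the data. Against the CD4-gated cells, 173 calls became 279 with DESeq2 size factors, 485 without the filter and 61 to 247 with 1 mouse left out. The interaction's 123 calls became 31 with DESeq2, 0 to 118 with 1 mouse left out, and, in settings added later, 1 without Epcam-positive and enterocyte-rich cells and 2 without enterocyte-rich cells.

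Genotype log2 fold changes that turned sign were those of Cd7 (-0.94 to 0.00047 with 1 mouse left out, 0.11 without Epcam-positive and enterocyte-rich cells), Gzma (-0.68 to 0.17 with 1 mouse left out, 0.083 at a 20% mitochondrial limit, 0.26 without Epcam-positive and enterocyte-rich cells, 0.12 without enterocyte-rich cells), Gzmb (-1.26 to 0.36, and 0.054, 0.31 and 0.0065 in the same settings), Ccl5 (-0.66 to 0.37, and 0.28, 0.11 and 0.21) and Apoc3 (-0.014 without enterocyte-rich cells). The positive values came without EC-Foxc-DKO replicate 2, for Gzma also without Control replicate 2 (0.045) and for Ccl5 also without Control replicate 1 (0.016). Against the CD8b1-gated cells Ccl5 turned to -0.53 with Itgae-positive cells only. In the interaction, with 1 mouse left out, Cyp3a13 ranged from -1.13 to 6.87 and Cystm1 from -1.56 to 6.62, each lowest without Control replicate 1. The cause was not tested.

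Of the single-gene values against the CD8b1-gated cells, 577 kept their direction and side of the threshold over 59 genes, 171 kept the direction and lost the call and 9 gained it. The share of members with a Cd8a UMI, 85.8% as a mean of the mice, was 96.1% at a 5% mitochondrial limit, 72.7% with Trac excluded and 66.0% when cells were thinned to 1000 UMIs. The difference in the share of T cells stayed below 0 in the settings tried, from -9.77 to -28.5 percentage points with 1 mouse left out and -6.80 with no mitochondrial limit, a setting added after seeing the data. In simulated counts of this depth, drawn with 1 fixed dispersion, the genotype test found 0 of 165 genes with a log2 change of 1. Differences of that size were not detectable in such counts, and real counts may vary more.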

Other observations

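Epcam, an adhesion molecule of epithelial cells that intraepithelial lymphocytes have also been described to carry, was counted in cells with under 1% of UMIs on the enterocyte list. It had a UMI in 139 of 274 gamma delta cells (50.7%, exact 95% interval 44.6 to 56.8%), in 62.7, 55.6, 49.3 and 28.6% of those of Control replicate 1, Control replicate 2, EC-Foxc-DKO replicate 1 and EC-Foxc-DKO replicate 2. Among CD8b1-gated T cells it had one in 15 of 70 (21.4%), among CD4-gated T cells in 12 of 34 (35.3%), and among cells with a Cd79a UMI and no CD3 UMI in 420 of 1568 (26.8%). By mouse the CD8b1-gated share was 16.7, 8.33, 24.4 and 27.3%, so EC-Foxc-DKO replicate 2 showed almost no gap. Of the cells with a Cd79a UMI, 1323 came from EC-Foxc-DKO replicate 1. When every cell was thinned to 1000 UMIs the shares were 15.7, 5.39, 8.15 and 8.33%. The difference between the gates was not tested.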
